A study of Mus musculus with 2 samples.

Results

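The genes described here encode the subunits of oxidative phosphorylation complexes I to V in mouse hypothalamus. They were chosen by gene symbol alone, as the genes named Nduf followed by a subunit letter and number, Sdha to Sdhd, Cyc1, and all those beginning with Uqcr, Cox4 to Cox8 or Atp5. The rule found 79 of the 21855 genes that had a symbol on the array, measured by 115 probes. Complex I held 35 of them, complex II 4, complex III 7, complex IV 17 and complex V 16. The brightest probe stood for each gene, and 77 genes were marked well above background on all 4 arrays (97.5%, against 73.7% of all genes). Neither Cox4i2 nor Cox8c reached that mark. Atp5s matched the rule by its name but is not a subunit, and it carries another symbol in RefSeq, Dmac2l.

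Oxidative phosphorylation takes place in the inner mitochondrial membrane. Complexes I and II pass electrons from NADH and succinate to ubiquinone, complex III passes them on to cytochrome c, and complex IV reduces oxygen. Complexes I, III and IV pump protons, and complex V, the ATP synthase, uses the proton gradient to make ATP. A small set of subunits is encoded in mitochondrial DNA, and the rest, which include all genes described here, are encoded in the nucleus. Neurons depend on this pathway for most of their ATP. Bezafibrate is a fibrate drug that activates the nuclear receptors PPAR alpha, delta and gamma, which control genes of fatty acid use in liver and muscle.

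The study asked how this PPAR agonist bears on gene expression in the brain, and compared mice fed bezafibrate with control mice at 2 times of day by hybridising hypothalamus RNA to one-colour whole-genome oligonucleotide arrays. Each of the 4 groups, control and bezafibrate at ZT10 and control and bezafibrate at ZT22, was a single array of RNA pooled from 4 mice. Zeitgeber time (ZT) counts the hours from lights on, so ZT10 and ZT22 fall late in the light and late in the dark phase of a standard cycle. The labels give an age of 8 weeks at entry and 3 feeding periods, of normal feed (2 weeks), of 0.5% bezafibrate in the feed (2 weeks) and of normal feed once more (5 weeks). They do not say at which point of that schedule the pools were taken, nor the strain, the sex or what the control mice ate. The dissected block was a square of brain that contained the hypothalamus.

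All 4 arrays lay on 1 slide, with the controls at positions 1 and 2 and the bezafibrate arrays at positions 3 and 4, so that diet and slide side cannot be told apart. The 75th percentile of the signal lay between 893 and 1050 units, and 68.7% to 74.6% of spots were well above background. All 11 hypothalamic marker genes on the array were above background on all 4 arrays, with a summed level of 255 to 310 times the 75th percentile. The pools differed in markers of neighbouring tissue. The summed level of 9 choroid plexus markers was 6.22 and 5.95 in control and bezafibrate at ZT10, and 7.30 and 9.63 at ZT22, where transthyretin (Ttr) was higher with bezafibrate by 3.76 on the log2 scale. The 6 striatal markers summed to 63.2, 62.3, 58.8 and 79.8 in the same order, the 6 thalamic markers to 7.35, 4.97, 5.87 and 5.47, and the 10 myelin markers to 249.9, 249.0, 261.9 and 227.1. The 10 anterior pituitary markers summed to 122.9, 110, 128.7 and 128.3. Of the 9 measured, 8 were lower with bezafibrate at ZT10, and 6 were lower at ZT22 than at ZT10 in control mice. The pituitary hormone genes Prl and Gh were above background on every array but that of bezafibrate ZT22, and were highest in control ZT10. Their log2 ratios were -4.48 and -3.72 for bezafibrate against control at ZT10, and -2.68 and -1.65 for ZT22 against ZT10 in control mice. Tshb was higher in bezafibrate ZT22, by 1.35 against control and by 1.61 against ZT10. All 7 pituitary markers measured were higher at ZT22 than at ZT10 in bezafibrate mice. From ZT10 to ZT22 in bezafibrate mice, all 11 hypothalamic markers were higher, with a median ratio of 0.27, against 59.1% of all genes and a median of 0.04. In control mice 7 of the 11 were higher at ZT22. With bezafibrate against control, 4 were higher at ZT10 and 6 at ZT22. The 10 neuronal markers summed to between 188 and 197. What part such tissue differences had in the values below was not tested.

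Each value below is a spot's processed signal divided by the 75th percentile of its array. A ratio is the log2 of such a level on one array over that on another, followed by the error that the scanner software attached to the signals. That error was 0.20 for most subunit genes. The same probe printed in several spots gave log2 ratios with a median SD of 0.064 to 0.068 over 204 probes. With 1 array a group there was no spread between mice or pools, and no p-value was given for a ratio between a pair of arrays. A difference counted as large when it passed 1.5-fold. In pooled tissue, fewer cells of a type and less RNA per cell cannot be told apart.

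Subunit levels differed little between any of the 4 pools. Across the 77 genes above background the ratio of bezafibrate to control at ZT10 ran from -0.35 to 0.23, with a median of -0.01. At ZT22 it ran from -0.15 to 0.59, with a median of 0.05. The ratio of ZT22 to ZT10 ran from -0.20 to 0.42 in control mice, with a median of 0.08, and from -0.16 to 0.57 in bezafibrate mice, with a median of 0.15. The medians over all genes above background were 0.01, 0.01, 0.03 and 0.04 in the same order. With the brightest probes, most subunit genes of every complex had a time ratio above 0 on either diet. The smallest share was that of complex IV in control mice, 9 of 15. The second probes of 7 complex V genes gave 3 above 0 on either diet. In bezafibrate mice the widest range of time ratios was that of complex IV.

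**Figure D1:**
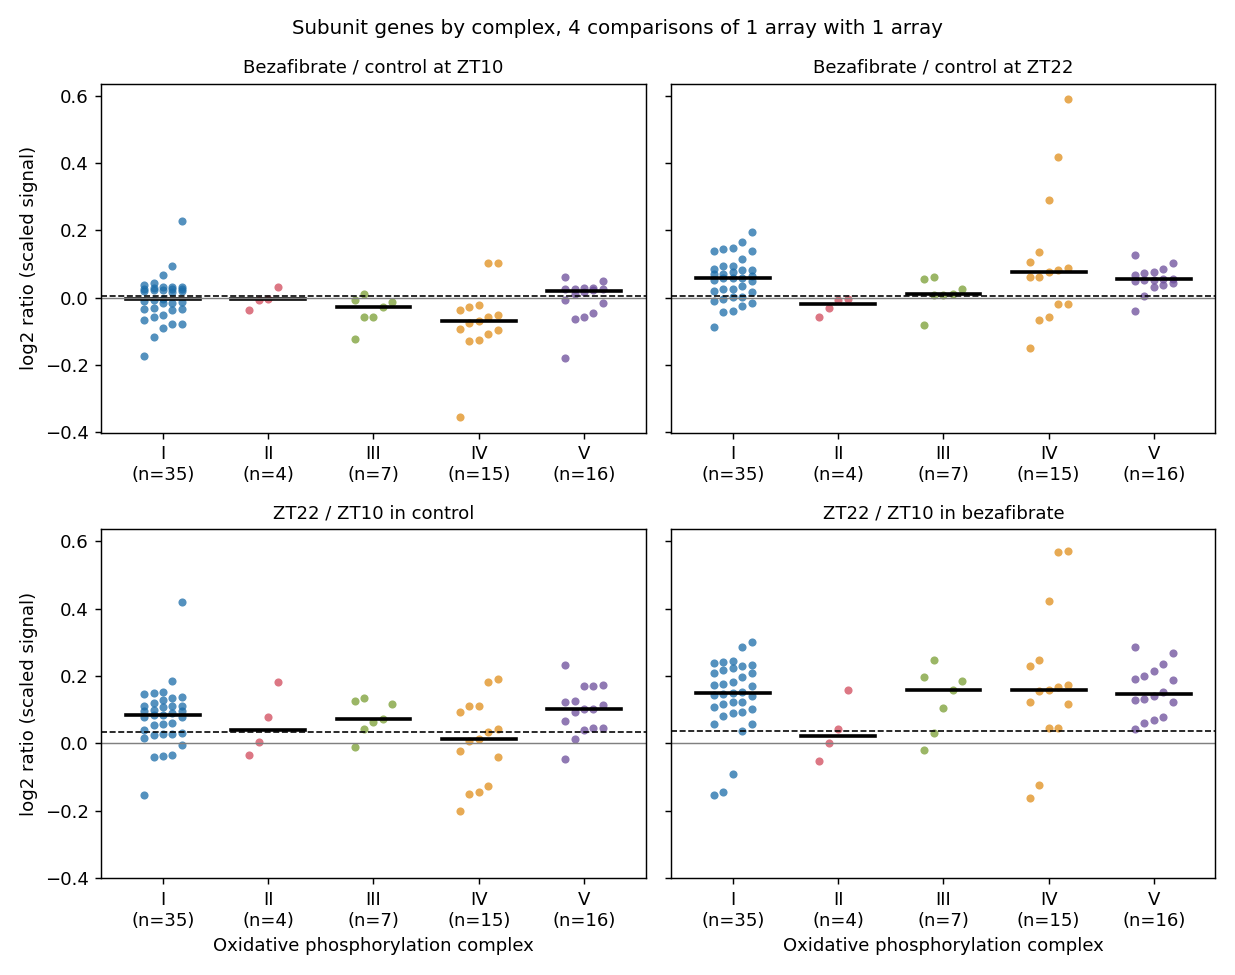
Log2 ratio of scaled signal (vertical axis) of each of the 77 subunit genes above background, by complex (horizontal axis), in 4 comparisons of 1 array with 1 array. Points are genes, thick bars are medians of the complex and the dashed line is the median of all genes. In bezafibrate mice 70 of 77 genes lie above 0 at ZT22 against ZT10, and the points of complex IV are the most scattered.

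At ZT10, 31 of the 77 subunit genes were higher with bezafibrate and 46 lower, whereas 52.7% of all 16330 genes were higher. Median scaling turned that split, with 46 of 77 higher against 62.8% of all genes and a median of 0.02. No subunit gene passed 1.5-fold in either direction, against a background of 1.09% of genes higher and 1.4% lower. Only the ratios of Cox7b and Ndufb2 were larger than their scanner error, against 14.7% of all genes. The median was 0.00 for complex I, 0.00 for complex II, -0.03 for complex III, -0.07 for complex IV and 0.02 for complex V. In complex IV 13 of 15 genes were lower, and in complex III 6 of 7, by the brightest probes. Of 22 genes with a second probe above background, 5 were higher by the brightest probe and 11 by the second. The sign was the same in 10 of the 22. The second probes of 2 complex III genes and of 1 complex IV gene were all above 0.

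At ZT22, 59 of 77 subunit genes were higher with bezafibrate, against 52.3% of 16414 genes. Cox8b alone was at least 1.5-fold higher (background 1.32%), and none was 1.5-fold lower (background 1.94%). The ratios of 3 genes, Cox8b, Cox7b and Cox6b1, were larger than their scanner error, against 17.1% of all genes. The median was 0.06 for complex I, -0.02 for complex II, 0.01 for complex III, 0.08 for complex IV and 0.05 for complex V. In complex V 15 of 16 genes were higher, in complex I 28 of 35, and in complex II none of 4. Of the 22 genes with a second probe above background, 20 were higher by the brightest probe and 15 by the second, with the same sign in 15. The direction at ZT22 also depended on how the arrays were scaled. Quantile normalization gave a median of 0.00 with 40 of 77 genes higher, against 50% of all genes. The authors' deposited ratio table gave a median of -0.02 with 26 of 77 higher. That table differed from the ratio used here by a constant factor in each column, and it had 4 of 77 subunit genes higher at ZT10. The median ratio over the whole table, not on the log2 scale, was 0.947 at ZT10 and 0.958 at ZT22. More of its values thus lay below 1 than above, and its share of all genes higher was not worked out.

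At both times together, 34 of 77 subunit genes were lower with bezafibrate at ZT10 and higher at ZT22, against 22.7% of 16102 genes above background on all 4 arrays. A further 25 were higher with bezafibrate at both times, against a background of 29.8%, and 12 were lower at both, against 24.7%. The 6 genes higher with bezafibrate at ZT10 and lower at ZT22 were Ndufb2, Cyc1, Sdhd, Atp5d, Ndufa10 and Ndufb5, against 22.7% of all genes. No subunit gene was beyond 0.32 on the log2 scale in 1 direction at both times (background 0.441% higher and 0.994% lower). The count of 34 was 18 under quantile normalization (21.8% of all genes) and 25 under median scaling (18.9%). Median scaling gave 39 genes higher with bezafibrate at both times, against 38.7% of all genes. The diet ratio at ZT22 exceeded that at ZT10 by a median of 0.06 over all subunit genes.

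From ZT10 to ZT22 the control pools showed 63 of 77 subunit genes higher at ZT22, against 57.9% of 16615 genes, and the bezafibrate pools 70 of 77, against 59.1% of 16216 genes. None passed 1.5-fold in either diet, where the background was 2.57% higher and 2.08% lower in control mice and 2.06% higher and 1.65% lower in bezafibrate mice. Both diets gave a higher level at ZT22 for 61 of 77 genes, against 42.6% of 16102. The genes lower at ZT22 on both diets included Cox6a2, Cox7a2l, Ndufa10 and Sdha, and such genes made up 25.1% of all genes. Cyc1 and Ndufb5 were higher at ZT22 in control and lower in bezafibrate mice (background 14.9%), and 9 genes the other way round (background 15.9%). The ratio was larger in bezafibrate than in control mice for 64 of 77 genes, against 50.8% of all genes. In bezafibrate mice the ratio of 21 genes was larger than its scanner error (23.9% of all genes), and in control mice that of 2 (24% of all genes). Beyond 0.32 on the log2 scale lay Ndufb2 in control mice (background 7.61% higher) and Cox7b, Cox8b and Cox7c in bezafibrate mice (background 7.27%). These pools share no array between the diets, and across the 77 genes the control and bezafibrate time ratios correlated with r = 0.23 (Pearson) and rho = 0.51 (Spearman), or 0.41 and 0.57 without Cox7b. Over all 16102 genes r was 0.29 and rho 0.39. Genes measured on the same arrays are not independent, so these are descriptions.

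**Figure D2:**
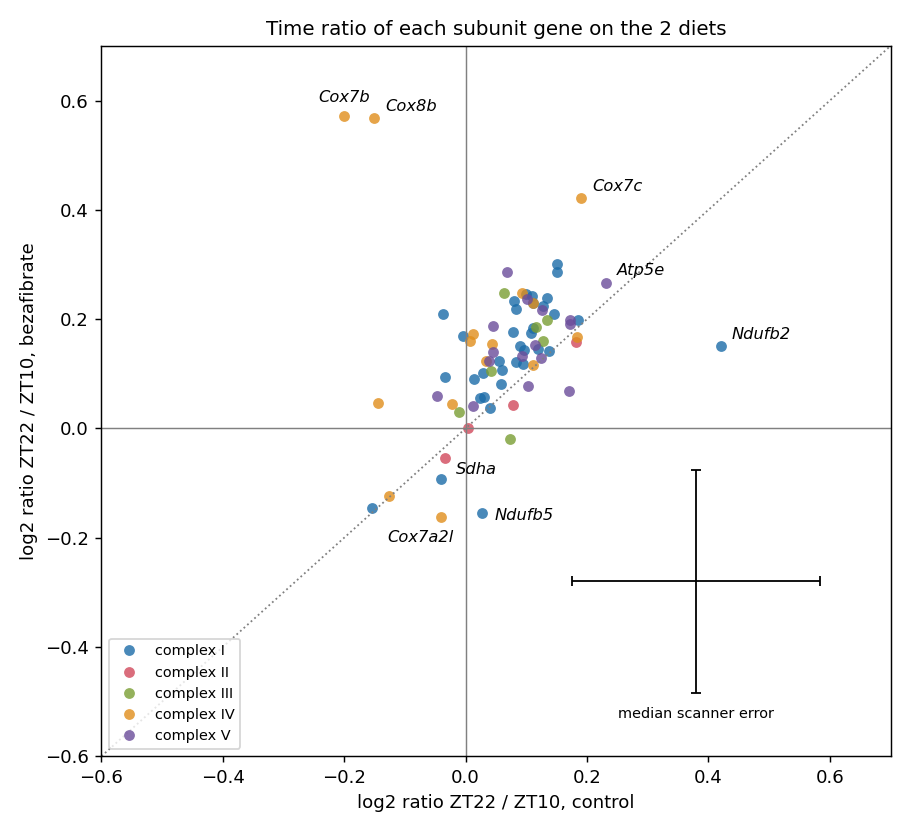
Log2 ratio of ZT22 to ZT10 in control mice (horizontal axis) and in bezafibrate mice (vertical axis) for 77 subunit genes, coloured by complex. The dotted line marks equal ratios and the cross shows the median scanner error. Of the 77 points, 61 lie above 0 on both axes, and Cox7b and Cox8b lie apart at the upper left.

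The time ratio was smaller under normalizations that also adjust by brightness. In bezafibrate mice the median of 0.15 became 0.05 with quantile normalization, with 53 of 77 genes higher, and 0.07 with cyclic loess, with 60 of 77 higher. In control mice the median of 0.08 became 0.02 under either, with 48 and 44 genes higher. Under the same normalizations 53.6% and 54.6% of all genes were higher in control mice, with medians of 0.01 and 0.02. In bezafibrate mice 52.6% and 53.9% of all genes were higher, also with medians of 0.01 and 0.02. The number higher at ZT22 on both diets then was 41 or 42 of 77, against 36.3% or 37.6% of all genes. The subunit genes are among the brightest on the array, and 74 of 79 were above the mean 75th percentile. Of the 77, 47 were marked on all 4 arrays as scaled up from a scan at low gain, and their medians were 0.09 in control and 0.17 in bezafibrate mice. The 28 read at high gain throughout had medians of 0.04 and 0.12. All 760 genes scaled up on all 4 arrays had medians of 0.06 and 0.11, and 611 and 665 of them were higher at ZT22. What part brightness had in the time ratio of the subunit genes was not tested.

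**Figure D3:**
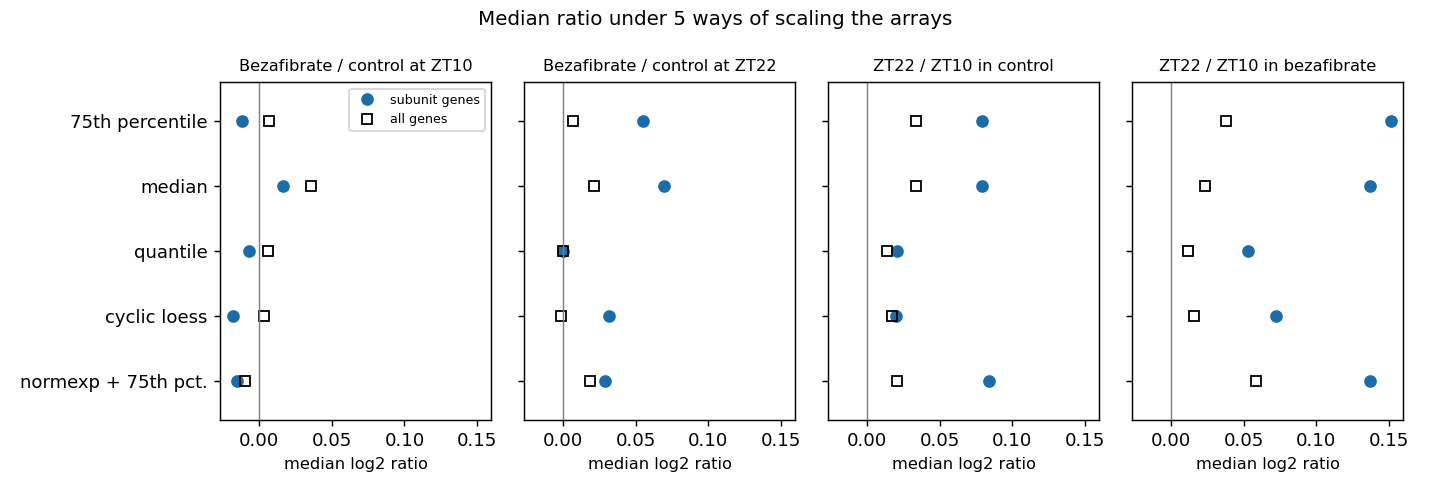
Median log2 ratio (horizontal axis) of the 77 subunit genes (filled circles) and of all genes (open squares) under 5 ways of scaling the arrays (vertical axis), in the 4 comparisons. The subunit median for ZT22 against ZT10 in bezafibrate mice is 0.15 with the 75th percentile and 0.05 with quantile normalization, and at ZT22 the diet median is 0.00 with quantile normalization.

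An additive model of diet and time over the 4 arrays, fitted with limma to 17786 genes, left 1 residual degree of freedom. The model takes diet to act alike at both times, and a diet ratio that differs between times counts as its error. It called none of 78 subunit genes for time or for diet at a Benjamini-Hochberg adjusted p of 0.05, and none of all genes (0% for either factor). The lowest adjusted p of a subunit gene was 0.44 for time and 0.88 for diet. At an unadjusted p of 0.05 it called 2 subunit genes for time, Atp5e and Ndufc1, against 10.6% of all genes, and 1 for diet, Cox4i2, against 5.29%. In this model 71 of 78 subunit genes had a time coefficient above 0, with a median of 0.12 and a median standard error of 0.05, against 59.5% of all genes. For diet 50 of 78 were above 0, with a median of 0.01, against 51.4%.

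Complex I is the entry point for NADH. Its 7 nuclear core subunits carry the flavin and the iron-sulfur clusters, and the accessory subunits surround them. At ZT22 against ZT10 the core had medians of 0.06 in control and 0.11 in bezafibrate mice, and the 28 accessory subunits 0.10 and 0.18. Ndufs3 and Ndufv2 were higher at ZT22 by 0.09 and 0.09 in control and by 0.15 and 0.12 in bezafibrate mice, and Ndufs1, the largest iron-sulfur subunit, by 0.02 and 0.06. Ndufv1, which binds NADH, was near the same level in all pools, at 37.0, 36.3, 37.8 and 37.7 for control ZT10, bezafibrate ZT10, control ZT22 and bezafibrate ZT22.

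Among the accessory subunits, Ndufb2 of the membrane arm stood out, at 26.3 in control and 30.9 in bezafibrate at ZT10 and at 35.2 and 34.3 at ZT22. The control ZT10 pool was the low one. The ratios were 0.23 ± 0.20 for diet at ZT10 and 0.42 ± 0.20 for time in control mice, the highest of all subunit genes in those comparisons. Its other probe, with a mean signal of 629 units against 31300, gave -0.04 for diet at ZT10 and 0.20 for time in control mice, so the sign of the diet ratio differed between the probes. Ndufb4, also of the membrane arm, was 30.3 and 30.8 at ZT10 and 30.2 and 34.6 at ZT22 in control and bezafibrate. The bezafibrate ZT22 pool alone was high, which gave the highest diet ratio of complex I at ZT22, 0.20 ± 0.20. Ndufab1, the mitochondrial acyl carrier protein, was 16.1 at ZT10 and 19.8 at ZT22 in bezafibrate mice, the highest time ratio of the complex at 0.30 ± 0.20, and both of its other probes above background gave 0.33 and 0.32. Ndufa11 had the lowest diet ratio of complex I at ZT10, -0.17 ± 0.20. Ndufb5 was the highest in bezafibrate ZT10 at 8.39 and the lowest in bezafibrate ZT22 at 7.54, with the lowest diet ratio of the complex at ZT22 (-0.09) and the lowest time ratio in bezafibrate mice (-0.15). Ndufc1 was higher at ZT22 on both diets to a like extent, 23.1 and 23.4 against 26.2 and 26.9, with a model coefficient of 0.19 ± 0.05 (SE, adjusted p = 0.44 by limma). Ndufa4, counted here by its symbol, is now also assigned to complex IV, and it was higher at ZT22 by 0.10 and 0.14.

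Complex II links the tricarboxylic acid cycle to the chain and is the one complex with all subunits encoded in the nucleus. The diet ratio of its 4 genes lay between -0.06 and 0.03 at either time. Sdha, the flavoprotein that oxidises succinate, was 8.98 and 8.75 at ZT10 and 8.77 and 8.43 at ZT22 in control and bezafibrate, so that its time ratios were -0.03 and -0.05. Sdhb, the iron-sulfur subunit, was 16.9 and 16.9 at ZT10 and 19.2 and 18.8 at ZT22. Both ZT22 pools were higher, by 0.18 ± 0.20 in control and 0.16 ± 0.20 in bezafibrate mice. The membrane anchor Sdhc was between 7.85 and 7.88 in all 4 pools, and the anchor Sdhd between 14.4 and 15.2.

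Complex III passes electrons from ubiquinol to cytochrome c. The hinge protein gene Uqcrh was 110.9 and 101.9 at ZT10 and 115.8 and 120.9 at ZT22 in control and bezafibrate. The bezafibrate pools held both the lowest and the highest level, with diet ratios of -0.12 ± 0.20 and 0.06 ± 0.20 and a time ratio of 0.25 ± 0.20 in bezafibrate mice, the highest of the complex. The second probe of Uqcrh gave diet ratios of 0.002 and 0.09 and a time ratio of 0.16 in bezafibrate mice. Cyc1, which encodes cytochrome c1, had the lowest diet ratio at ZT22 (-0.08) and the lowest time ratio in bezafibrate mice (-0.02). Uqcrb had the highest time ratio in control mice (0.13) and Uqcrc1, a core protein, the lowest (-0.01). The Rieske iron-sulfur gene Uqcrfs1 was higher at ZT22 by 0.13 and 0.16, Uqcr by 0.12 and 0.19, and the core protein gene Uqcrc2 by 0.04 and 0.11.

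Complex IV transfers electrons to oxygen, and its nuclear subunits surround a mitochondrially encoded catalytic core. Cox7b, a small X-linked subunit, had the widest range of levels after the dim Cox8b. Its level was 17.5 in control and 13.7 in bezafibrate at ZT10, and 15.2 in control and 20.4 in bezafibrate at ZT22. The bezafibrate pools were the lowest and the highest, with the control pools between. The diet ratio was -0.35 ± 0.20 at ZT10 and 0.42 ± 0.20 at ZT22, and the time ratio -0.20 ± 0.20 in control and 0.57 ± 0.20 in bezafibrate mice. Its diet ratio at ZT10 was the lowest of all 77 subunit genes and the only one below -0.32, where the background was 5.08% of genes. At ZT22 only Cox7b and Cox8b were above 0.32, against 4.67% of genes. Only 1 of its 2 probes was above background.

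Cox8b encodes the isoform of subunit VIII that mouse heart, skeletal muscle and brown fat use. It was dim, at 0.0359 and 0.0329 at ZT10 and 0.0324 and 0.0487 at ZT22 in control and bezafibrate, with the bezafibrate ZT22 pool alone high. The diet ratio at ZT22 was 0.59 ± 0.26 and became 0.32 with another background correction (normexp). In the same comparison 9 skeletal muscle and heart markers had a median of 0.08 with 6 higher, and the muscle creatine kinase gene Ckm was not above background on any array. Of 4 brown fat markers, Dio2 gave 0.65 and Cidea 0.15, and Ucp1 and Elovl3 were not above background on any array. What part such tissue had in the Cox8b value was not tested.

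**Figure D4:**
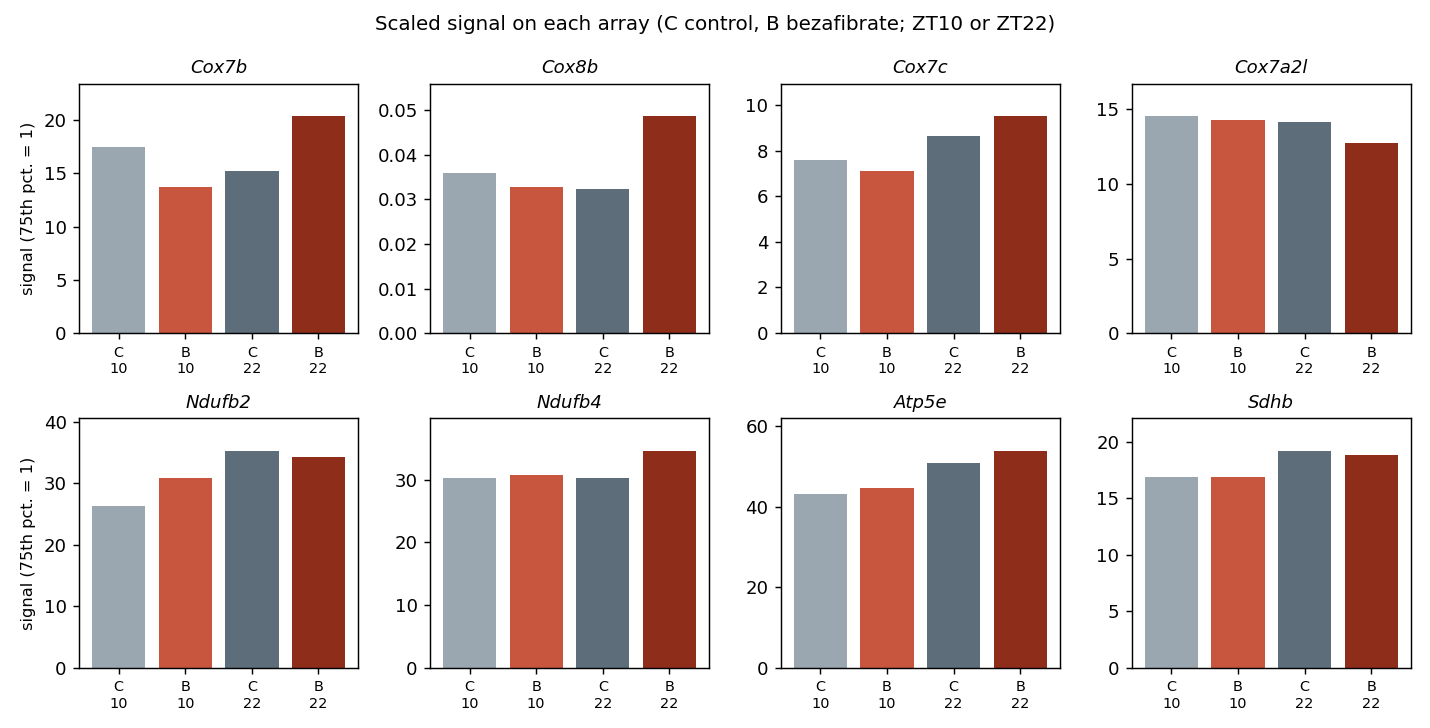
Signal of 8 subunit genes on each array in units of the array's 75th percentile (vertical axes from 0, each with its own range). Bars are single arrays of pooled RNA in the order control ZT10, bezafibrate ZT10, control ZT22 and bezafibrate ZT22, and carry no error bar because each group was 1 array. Cox7b is lowest in bezafibrate ZT10 at 13.7 and highest in bezafibrate ZT22 at 20.4, whereas Cox7a2l is lowest in bezafibrate ZT22 at 12.8.

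Cox7c was 7.59 and 7.10 at ZT10 and 8.66 and 9.52 at ZT22 in control and bezafibrate. Both ZT22 pools were higher, by 0.19 ± 0.20 and 0.42 ± 0.20, and the limma coefficient for time was 0.31 ± 0.09 (SE, adjusted p = 0.44). Cox6b1, whose product faces the intermembrane space, was 2.40 and 2.57 at ZT10 and 2.17 and 2.65 at ZT22. Both bezafibrate pools were higher, by 0.10 ± 0.20 and 0.29 ± 0.20. Cox5b was the highest of complex IV at ZT10 for diet (0.10). Cox7a2l, which helps to join complexes III and IV into supercomplexes, was 14.6 and 14.3 at ZT10 and 14.2 and 12.8 at ZT22, with the lowest diet ratio of all subunit genes at ZT22 (-0.15 ± 0.20) and the lowest time ratio in bezafibrate mice (-0.16 ± 0.20).

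Several complex IV subunits have a general isoform and one for particular tissues. The general isoforms Cox4i1, Cox6a1, Cox7a2 and Cox8a had diet ratios of -0.06, -0.08, -0.04 and -0.05 at ZT10, and of 0.11, 0.08, 0.08 and 0.06 at ZT22. Each ratio was within its scanner error. The second probe of Cox7a2 gave 0.009 at ZT10 and -0.08 at ZT22. The muscle isoforms Cox6a2 and Cox7a1 gave -0.07 and -0.11 at ZT10 and -0.07 and -0.02 at ZT22, and the testis isoform Cox6b2 -0.12 and -0.06. The isoform Cox4i2, known from lung and from low oxygen, was above background only in the control ZT10 pool, at 11.3 units, and gave 4.0 units in bezafibrate ZT10, 10.1 in control ZT22 and 4.02 in bezafibrate ZT22. The lowest signal counted as above background on the bezafibrate ZT10 array was 13.6 units, so no fold can be given. The limma coefficient of Cox4i2 for diet, -1.35 (adjusted p = 0.88), rests on those dim signals. The testis isoform Cox8c, at 1.78 to 3.12 units, was not above background on any array.

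Complex V consists of the catalytic F1 head and the membrane part Fo. With the brightest probes, the 5 F1 genes were all higher at ZT22, with medians of 0.17 in control and 0.24 in bezafibrate mice, and the 10 Fo, stalk and associated genes had medians of 0.07 and 0.13. Atp5e, the epsilon subunit of F1, was 43.3 and 44.8 at ZT10 and 50.8 and 53.9 at ZT22 in control and bezafibrate. Both ZT22 pools were higher, and the limma coefficient for time was 0.25 ± 0.05 (SE, unadjusted p = 0.029, adjusted p = 0.44). Atp5b, the catalytic beta subunit, was 144.6 and 127.6 at ZT10 and 151.5 and 155.7 at ZT22, with the lowest diet ratio of the complex at ZT10 (-0.18 ± 0.20) and the highest time ratio in bezafibrate mice (0.29 ± 0.20). The gamma subunit gene Atp5c1 was higher at ZT22 by 0.17 and 0.19 and the delta subunit gene Atp5d by 0.17 and 0.07. Atp5d had the highest diet ratio of the complex at ZT10 (0.06) and the lowest at ZT22 (-0.04), and Atp5g2 the highest at ZT22 (0.13). The 3 genes Atp5g1, Atp5g2 and Atp5g3 encode the same mature subunit c, and their time ratios were 0.01, 0.05 and -0.05 in control and 0.04, 0.19 and 0.06 in bezafibrate mice.

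Other probes of complex V genes gave other values. Atp5b had 2 further bright probes for the same transcript, and in bezafibrate mice they gave time ratios of -0.12 and -0.13 where the brightest gave 0.29. For diet at ZT10 these 2 probes gave 0.0004 and 0.0015, where the brightest gave -0.18. The second probe of Atp5a1, the alpha subunit, gave -0.12 in control and 0.03 in bezafibrate mice, where the brightest gave 0.10 and 0.24. Over the 7 complex V genes with a second probe above background, the brightest probes had medians of 0.07 and 0.19 with all 7 higher on either diet, and the second probes medians of -0.01 and -0.03 with 3 of 7 higher. The dimmest probe of Atp5f1, at about 17 units, gave -1.02 in control mice against 0.04 for the brightest. In complex I the second probes gave 0.13 and 0.18 over 11 genes, where the brightest gave 0.11 and 0.20. Over all 22 genes with a second probe the medians were 0.07 and 0.14, with 14 and 15 genes higher, and 0.07 and 0.19 with the brightest probes, with 18 and 21 higher.

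Promoters of these genes are known to carry sites for NRF1 and for GABPA, a member of the ETS family, which regulate nuclear genes of mitochondrial proteins. RefSeq (GRCm38.p6) gave an upstream window of 250 bases for 65 of the 79 genes. The NRF1 motif, GCGCA, any base and GCGC, was searched on both strands and found in 13 of 65 (20%) against 4.23% of 27025 genes, and the ETS motif CCGGAAG, also on both strands, in 11 (16.9%) against 7.83%. The PPAR motif, made of AGGTCA repeated after any 1 base, was found in none of 65, against 0.0407% of all genes. The 4 windows below were chosen after the values were seen. Ndufb4 and Sdha carry 3 NRF1 matches each, with unlike time ratios in bezafibrate mice alone. Cox6a1 carries both motifs, and Cox7b, whose diet ratio was below 0 at ZT10 and above 0 at ZT22, carries neither. They run 5′ to 3′ on the gene's strand up to the base before the start, and capitals mark the NRF1 and ETS matches.
Ndufb4 (chr16:37654369-37654618, minus strand): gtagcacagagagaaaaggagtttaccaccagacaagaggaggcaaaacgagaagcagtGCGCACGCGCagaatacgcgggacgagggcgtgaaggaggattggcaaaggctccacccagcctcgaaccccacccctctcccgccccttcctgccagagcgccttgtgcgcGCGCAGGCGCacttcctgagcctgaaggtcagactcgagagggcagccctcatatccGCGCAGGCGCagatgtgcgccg
Sdha (chr13:74350241-74350490, minus strand): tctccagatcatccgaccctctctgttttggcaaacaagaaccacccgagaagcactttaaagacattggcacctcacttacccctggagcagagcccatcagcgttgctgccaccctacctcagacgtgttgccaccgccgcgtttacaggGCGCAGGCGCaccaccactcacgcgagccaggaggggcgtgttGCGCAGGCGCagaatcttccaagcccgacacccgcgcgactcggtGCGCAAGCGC
Cox6a1 (chr5:115348959-115349208, minus strand): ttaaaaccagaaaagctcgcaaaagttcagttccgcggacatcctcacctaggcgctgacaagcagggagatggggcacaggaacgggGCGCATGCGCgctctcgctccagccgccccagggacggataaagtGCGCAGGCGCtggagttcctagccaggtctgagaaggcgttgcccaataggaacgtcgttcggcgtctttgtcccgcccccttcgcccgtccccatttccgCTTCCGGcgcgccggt
Cox7b (chrX:106015450-106015699, plus strand): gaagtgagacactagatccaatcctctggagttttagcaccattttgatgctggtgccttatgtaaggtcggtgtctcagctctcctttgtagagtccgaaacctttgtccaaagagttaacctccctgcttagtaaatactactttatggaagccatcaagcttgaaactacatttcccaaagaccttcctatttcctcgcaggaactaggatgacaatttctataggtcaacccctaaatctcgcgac

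The 13 genes with an NRF1 match had median time ratios of 0.05 in control and 0.17 in bezafibrate mice, and the 52 without a match 0.09 and 0.15. For diet the medians were -0.01 at ZT10 and 0.05 at ZT22 with a match, and -0.01 and 0.05 without. Ndufb4 and Sdha, whose windows hold equal numbers of matches, had time ratios of 0.17 and -0.05 in bezafibrate mice and of -0.005 and -0.034 in control mice. Each was within its scanner error of 0.20. A match in these letters is a description of the sequence and not of binding.

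Genes that serve the same pathway were set beside the subunits, with 75th percentile scaling alone. Of all genes, 57.9% were higher at ZT22 in control and 59.1% in bezafibrate mice, with medians of 0.03 and 0.04. The 42 assembly factors above background had time medians of 0.09 in control and 0.09 in bezafibrate mice, with 34 and 32 higher, and the 78 mitochondrial ribosomal proteins 0.09 and 0.10, with 63 and 62 higher. The 83 cytosolic ribosomal proteins, which are no part of the mitochondrion, had 0.06 and 0.14, with 68 and 73 higher. With bezafibrate at ZT22, 79 of them were higher (median 0.10), against 52.3% of all genes. The 16 tricarboxylic acid cycle genes had 0.03 and 0.05, the 23 carriers and electron shuttles 0.03 and 0.06, and the 19 regulators of mitochondrial gene expression 0.02 and 0.06. One regulator passed 1.5-fold, Tfam, the factor that packages and transcribes mitochondrial DNA, which was higher at ZT22 in bezafibrate mice by 0.59 ± 0.20 and in control mice by 0.28 ± 0.20. Coq3, an enzyme of ubiquinone synthesis, was dim and lower at ZT22 in bezafibrate mice by 0.61 on the log2 scale. Taco1, which helps to translate a mitochondrial subunit of complex IV and is listed on the array under an older name, was higher with bezafibrate at ZT10 by 0.60 ± 0.21 and gave -0.04 at ZT22. The 10 neuronal markers had time medians of -0.01 and 0.02. No mitochondrially encoded subunit was named on the array.

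**Figure D5:**
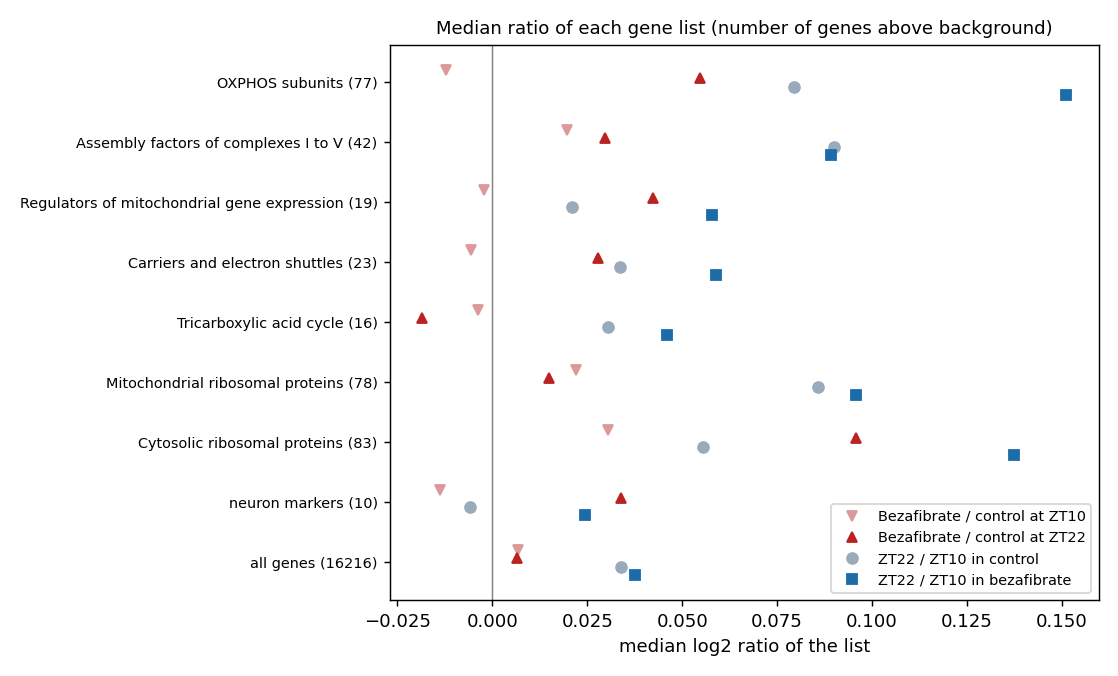
Median log2 ratio (horizontal axis) of the subunit genes, of other gene lists and of all genes (vertical axis, with the number above background), with a symbol for each of the 4 comparisons. With 75th percentile scaling, and of the lists drawn here, the subunit genes have the highest median for ZT22 against ZT10 in bezafibrate mice, 0.15, next to cytosolic ribosomal proteins at 0.14.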

How the data were processed

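RNA pooled from 4 mice a group was hybridised to 4 one-colour Agilent arrays, 1 a group. The deposited spot intensities were background-corrected and flagged by Agilent Feature Extraction 9.5.1.1, per the file headers. The authors also deposited a table of ratios of bezafibrate over control, whose scaling is not given in the sources used here. Here the processed signal was divided by the array's 75th percentile over non-control features, outlier spots were left out, spots of a probe averaged, and the brightest probe taken for each gene. Ratios used genes well above background on both arrays.

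The members and the gene lists were chosen with earlier results of these data known. Genes were named by a rule: the 3 highest and 3 lowest in each comparison, the extremes of each complex, dim members, and isoforms. Values of 1 gene that the rule names are not reported here. With 1 array a group, p-values came only from limma 3.58.1 (R 4.3.3), an additive model of diet and time. The code was also run on simulated arrays, with equal noise for all genes and the diet effect alike at both times. Those settings are simpler than the data, so that run does not show how well the model serves here. The model had 1 residual degree of freedom, and Benjamini-Hochberg adjustment covered all genes. Its p-values measure the spread left between 4 pools, not between mice. That spread is the difference of the diet ratio between the times, which the model takes as error. Alternatives were other scalings and background correction (normexp, offset 50), probe rules, filters, folds of 0.32 on the log2 scale and of 2, updated symbols and the deposited ratios. Promoters came from RefSeq through Python 3.11.15.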

Additional observations from a re-analysis of the deposited data

Results flagged for a closer look

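Cox7b, the small X-linked subunit of complex IV, stood out because its diet ratio lay on opposite sides of 0 at the 2 times, each beyond its own scanner error of 0.20. Bezafibrate against control gave -0.35 at ZT10 and 0.42 at ZT22, from 1 array a group, and the difference was not tested.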

How the results depend on the processing

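Over the alternatives run, the median ratio of the 77 subunit genes ranged from 0.05 to 0.15 for time in bezafibrate mice, from 0.02 to 0.08 for time in control mice, from -0.10 to 0.02 for diet at ZT10 and from -0.02 to 0.07 for diet at ZT22. Diet medians therefore had no fixed sign. With the deposited ratio table they were -0.10 at ZT10 (4 genes higher) and -0.02 at ZT22 (26 higher), in a table whose own median ratio was 0.947 and 0.958. By complex I to V that table gave -0.09, -0.09, -0.12, -0.16 and -0.07 at ZT10, and -0.02, -0.09, -0.06, 0.01 and -0.02 at ZT22. For time in bezafibrate mice, quantile normalization gave 0.05 over all, and 0.08, 0.09, 0.04 and 0.03 for complexes I, III, IV and V. Cyclic loess gave 0.07 over all, and 0.08, 0.10, 0.06 and 0.07. Quantile normalization gave 0.01 for complex IV and diet at ZT22, and cyclic loess 0.03 for complex V and time in control mice. The second brightest probe gave -0.01 and -0.03 for complex V and time in control and bezafibrate mice. Complexes II, III and IV, with 1, 2 and 1 genes, had too few for a value with that probe.

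The alternatives named next were chosen after seeing the data: genes read at high gain alone, all genes without Cox7b, and ratios relative to the median of all genes. With high-gain genes alone, the time median of complex IV was -0.08 in control and 0.08 in bezafibrate mice, and that of complex V in control mice 0.17. At a fold of 0.32 on the log2 scale, 1 subunit gene was lower with bezafibrate at ZT10, 2 were higher at ZT22, and 1 and 3 were higher for time in control and bezafibrate mice. The 1 gene at least 1.5-fold higher at ZT22 was Cox8b. That count became 0 at 2-fold, with normexp, with the deposited table and relative to the median of all genes. It was also 0 with the second brightest probe, a setting that could not measure Cox8b because it has only 1 probe. Without the filter on dim probes, 1 gene was 1.5-fold higher and 1 lower at ZT10, and 1 lower at ZT22. The causes of these differences were not tested. The limma model called 0 subunit genes at an adjusted p of 0.05 in all 4 fits run. At an unadjusted p of 0.05 it called 1 for diet and 2 for time as reported, 1 and 17 with the tested factor alone, 1 and 0 after quantile normalization, and 0 and 10 over genes above background on all 4 arrays. The share of all genes was worked out for the reported fit alone, at 5.29% for diet and 10.6% for time. The counts of the other fits therefore have no background to be read against. No paired analysis was possible because each group is 1 array. Leaving out an array leaves no residual degrees of freedom, so it was not run. Of single ratios, dim genes near background were limited most, with a scanner error of 0.26 to 0.27 for Cox8b against 0.20 for bright genes.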

Other observations

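Updating array symbols through RefSeq added 7 genes that the rule would have taken under their present names. Of these, Uqcrq and Uqcr10 of complex III, Ndufb6 and Ndufv3 of complex I, and Atp5md and Atp5mpl of complex V, had time ratios of 0.05 to 0.29 in control and 0.10 to 0.29 in bezafibrate mice. The remaining gene, Cox7b2, a testis isoform of complex IV, had ratios of -0.19 and -0.03 at signals of 82.9 to 103 units. All 7 were above background on all 4 arrays.

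Among cytosolic ribosomal proteins, Rpl21 was higher at ZT22 in bezafibrate mice by 0.88 on the log2 scale, the highest ratio of that list in any of the 4 comparisons, and its diet ratio at ZT10 was -0.50. Rpl3l, a paralog known from muscle, had a diet ratio of -0.63 at ZT22.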
